A study of Mus musculus with 3 samples.

Results

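The 10 genes described here encode kinases, coactivators, DNA-binding partners, inhibitors and a target of the Hippo pathway: Lats1, Lats2, Yap1, Wwtr1, Tead1, Tead3, Tead4, Amotl1, Amotl2 and Axl. They were chosen by name from 21887 protein-coding genes, by a rule that uses no measured value, though with earlier results of these data known. For each gene, every peak was taken whose summit lay in the annotated RefSeq span (GRCm38.p6, the same assembly as mm10) or within 50 kb of either end. This gave 15 of 5213 peaks of the Foxc1 antibody and 8 of 2881 peaks of the Foxc2 antibody. The peaks come from chromatin immunoprecipitation followed by sequencing (ChIP-seq) on kidney glomeruli, the capillary tufts that filter blood, from C57BL/6 mice aged 8 weeks. The labels list 1 library with the Foxc1 antibody D8A6, 1 library with the Foxc2 antibody AF6989 and 1 library of input DNA, which was not analysed here. No genotype or treatment distinguishes the libraries. Glomeruli hold podocytes, mesangial cells and endothelium, and a peak list does not tell which of these cells gave a peak, nor does it hold expression values against which the tissue label could be checked. The labels do not say whether animals were pooled. Since each antibody was used on a single library, spread between replicates could not be measured, no difference below was tested, and intervals cover counting error only.

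The Hippo pathway restrains growth and responds to cell contact and mechanical tension. The kinases encoded by Stk3 and Stk4 activate Lats1 and Lats2, which phosphorylate the coactivators Yap and Taz (the products of Yap1 and Wwtr1) and hold them in the cytoplasm. Unphosphorylated Yap and Taz enter the nucleus and bind TEAD factors, which read the DNA letters GGAATG. In mouse podocytes, loss of Yap1 is known to cause proteinuria. Foxc1 and Foxc2 are closely related forkhead transcription factors.

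Of the 10 genes, 6 had a Foxc1 summit (60%, exact Clopper-Pearson 95% interval 26.2 to 87.8%), against 29.3% of all protein-coding genes. A Foxc2 summit was found for 5 of the 10 (50%, exact interval 18.7 to 81.3%), against 23.2% of all protein-coding genes. Tead1, Lats2, Amotl2 and Axl had summits of both antibodies, a pattern of 12.5% of genes. Yap1 and Amotl1 had Foxc1 summits alone (16.7% of genes), and Tead4 had a Foxc2 summit alone (10.7% of genes). Wwtr1, Tead3 and Lats1 had neither, like 60.1% of genes. The median span was 64.6 kb for the 10 genes, against 17.2 kb over all genes. Among genes of 0.5 to 2 times the span of each of the 10, the share with a Foxc1 summit ran from 29.0% (for Amotl2) to 47.8% (for Tead1), and with a Foxc2 summit from 24.5% (for Amotl2) to 29.8% (for Amotl1).

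Of the 15 Foxc1 summits, 0 lay within 1 kb of an end of the gene they were assigned to among the 10 (3 counts of 15 would allow a share of up to 20%), and 1, at Lats2, lay within 2 kb. Of the 8 Foxc2 summits, 4 lay within 1 kb of such an end (50%, exact interval 15.7 to 84.3%), of which 2 had a q-value under 1e-05 and 1 a fold of 5 or more. These 4 belonged to 4 genes, Tead1, Tead4, Lats2 and Amotl2, while 7.47% of all protein-coding genes had such a Foxc2 summit and 2.93% had such a Foxc1 summit. Over all pairs of a gene and a summit assigned to it, 6.82% of Foxc1 pairs and 23.6% of Foxc2 pairs lay that close, so the Foxc1 count of 0 is near what all pairs show. Inside the assigned gene lay 3 of the 15 Foxc1 summits and 6 of the 8 Foxc2 summits, against 31.6% of all Foxc1 pairs and 27.4% of all Foxc2 pairs. The exact intervals were 4.33 to 48.1% for Foxc1 and 34.9 to 96.8% for Foxc2. With fixed flanks of 50 kb, the share inside can grow with span. The median span was 64.6 kb here against 17.2 kb over all genes, and these shares were not matched for span. The median distance to an end of the gene was 16.7 kb for the 15 Foxc1 summits and 0.950 kb for the 8 Foxc2 summits, against 22.4 and 16.5 kb over all such pairs. Of the 15 Foxc1 summits, 7 were those of Axl. The Foxc1 shares, intervals and medians over peaks thus rest largely on 1 locus and are not based on independent peaks. The 8 Foxc2 summits came from 5 genes, with 2 each at Tead1, Amotl2 and Axl, so they are not independent either. The intervals over peaks are therefore no test against the shares over all pairs. Foxc1 peaks were 232 to 661 bp wide and Foxc2 peaks 281 to 519 bp, with medians of 352 and 475.5 bp against 332 and 327 bp in the whole lists.

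**Figure D1:**
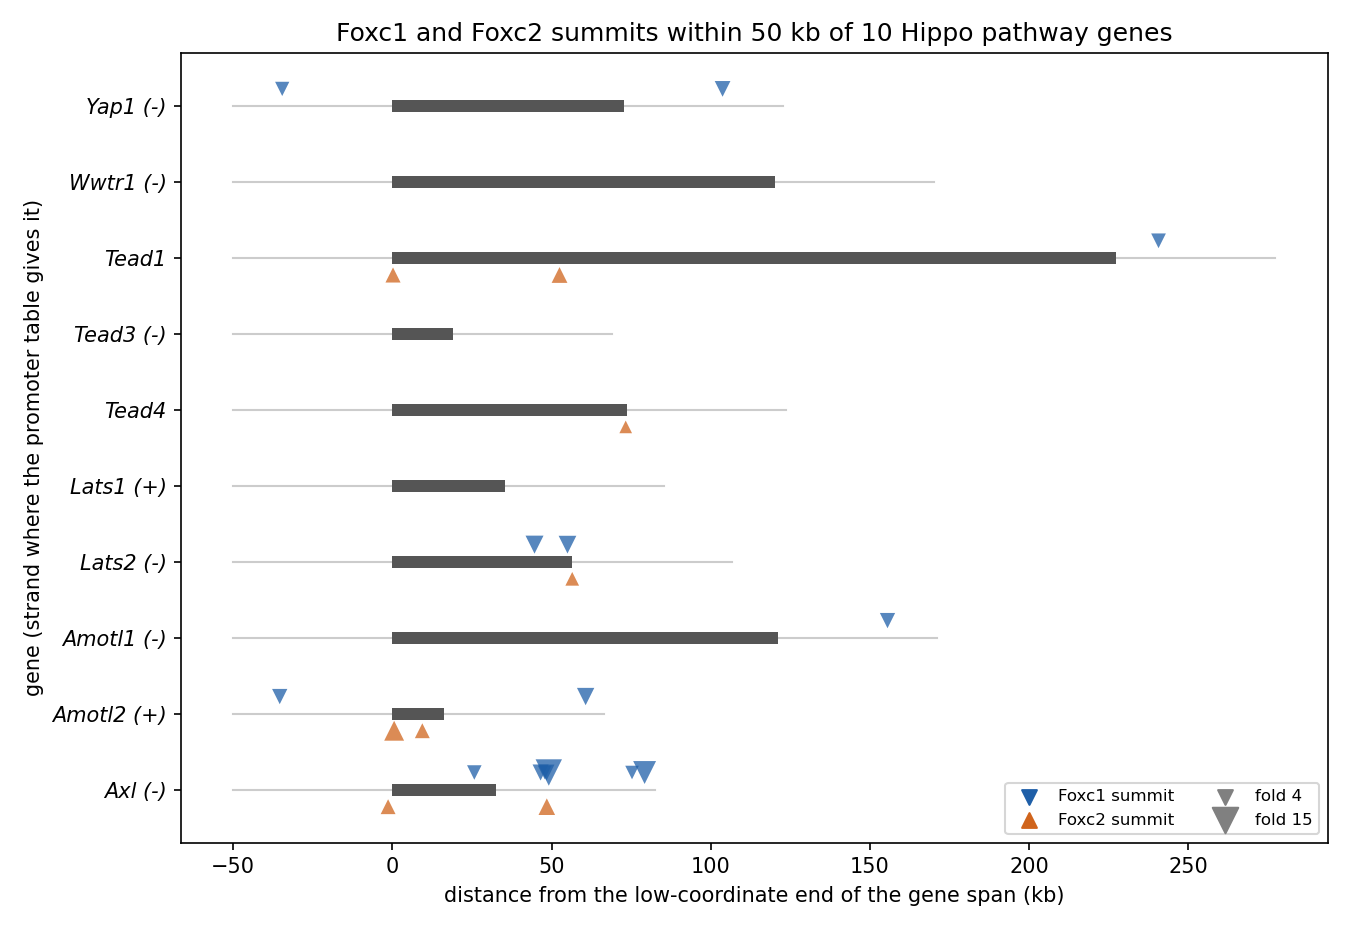
Each row is a gene drawn from the low-coordinate end of its span, with the horizontal axis in kb, the dark bar showing the span and the thin line the 50 kb on either side. Blue triangles above a row are Foxc1 summits and orange triangles below it Foxc2 summits, with size growing with the authors' fold enrichment; 4 orange triangles sit within 1 kb of an end of the gene in their row and no blue one does.

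The kinase genes differed in their peaks. Fold here is the enrichment at the summit over local background, a value of the authors' peak caller, and it is ranked only within its own list. Lats1 (chromosome 10, 7681200 to 7716461) had no summit within 50 kb. The nearest lay 203 kb away for Foxc1 (fold 4.59) and 240 kb away for Foxc2 (fold 3.64), both nearest to Tab2. Lats2 (chromosome 14, 57689662 to 57746212, minus strand) had Foxc1 peaks of fold 6.75 and 6.49 inside the gene, higher than 75.7 and 73.4% of the Foxc1 list. Its Foxc2 peak had a fold of 3.25, higher than 11.1% of the Foxc2 list. All 3 peaks of Lats2 thus lay inside the gene, the Foxc1 ones above the median of their list and the Foxc2 one below its median.

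Both promoter windows of Lats2 overlapped a peak, each of a different antibody. The Foxc2 summit lay 35 bases upstream of the outer annotated start, at the high-coordinate end of the gene (peak chr14:57745818-57746306). A Foxc1 summit lay 1455 bases downstream of the same start (peak chr14:57744486-57744866), 1.49 kb from the Foxc2 summit. The other Foxc1 summit lay 105 bases downstream of the inner annotated start, within the gene (peak chr14:57734095-57734534). The predicted gene Gm52140 overlaps the span of Lats2, and both the Foxc2 peak and the nearer Foxc1 peak lay inside it as well. The windows of 250 bases before and 50 from each start are shown 5′ to 3′ because they held these peaks. They come from RefSeq (GRCm38.p6, minus strand), base 251 is the start, and capitals mark GGAATG on either strand.

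Lats2, outer start, chr14:57746074-57746373, overlapped by the Foxc2 peak: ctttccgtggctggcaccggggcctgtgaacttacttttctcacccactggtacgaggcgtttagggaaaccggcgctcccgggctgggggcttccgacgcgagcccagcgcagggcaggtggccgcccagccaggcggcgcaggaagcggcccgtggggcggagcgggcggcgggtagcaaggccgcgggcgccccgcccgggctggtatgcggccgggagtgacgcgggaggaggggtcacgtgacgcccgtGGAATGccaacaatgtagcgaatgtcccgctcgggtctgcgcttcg

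Lats2, inner start, chr14:57734369-57734668, overlapped by a Foxc1 peak: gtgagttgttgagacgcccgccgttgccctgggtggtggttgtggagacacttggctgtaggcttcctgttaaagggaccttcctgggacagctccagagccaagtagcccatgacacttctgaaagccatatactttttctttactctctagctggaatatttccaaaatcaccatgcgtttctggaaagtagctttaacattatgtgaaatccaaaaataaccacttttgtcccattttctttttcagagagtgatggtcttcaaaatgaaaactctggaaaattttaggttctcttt

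The windows differ in composition. The outer window held 37 CpG dinucleotides with 71.7% G and C, and 94.4% of the 32851 promoter windows of the RefSeq table held fewer CpG. The inner window held 4 CpG with 42.7% G and C, and 31.4% of windows held fewer. Over all windows, those overlapped by a Foxc2 peak held a median of 31 CpG, those overlapped by a Foxc1 peak 20, and all windows 7. Neither window of Lats2 held the forkhead core TAAACA or its reverse complement TGTTTA.

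The coactivator genes had no summit inside them. Yap1 (chromosome 9, 7931999 to 8004638) had 2 Foxc1 peaks, of fold 3.64 and 4.78, with summits 34.6 kb below the gene and 31.1 kb above it. Both lay below the median of the Foxc1 list. The first was nearer to Birc3, an inhibitor of apoptosis (24.2 kb), and the second lay inside Cfap300, so neither had Yap1 as its nearest gene. Yap1 had no Foxc2 summit within 50 kb, and the nearest on the chromosome lay 5745 kb away. Wwtr1 (chromosome 3, 57455644 to 57575910) had none of either antibody, while genes of similar span had a Foxc1 summit in 41.1% of cases and one of Foxc2 in 29.8%. The nearest to it were a Foxc1 summit at 168 kb (fold 5.22) and a Foxc2 summit at 162 kb (fold 6.02), both nearest to Tm4sf1.

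Among the TEAD genes, which encode the DNA-binding partners of Yap and Taz, Tead1 and Tead4 carried a Foxc2 peak at a gene end. Tead1 (chromosome 7, 112679356 to 112906784), the longest of the 10 genes at 227 kb, had a Foxc2 summit 0.191 kb inside its low-coordinate end (peak chr7:112679327-112679827, fold 4.29). A second Foxc2 summit lay 52.5 kb inside the gene (fold 4.83, higher than 79.0% of the Foxc2 list). Its only Foxc1 summit lay 13.3 kb beyond the opposite end, with a fold of 4.0, and the Foxc2 summit nearest to it was 37.7 kb away. Just past the limit, a pair of overlapping peaks nearest to Rassf10 had summits 51.1 kb (Foxc1, fold 3.96) and 51.0 kb (Foxc2, fold 5.33) from Tead1.

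Tead4 (chromosome 6, 128227143 to 128300813) had a Foxc2 summit 0.369 kb inside its high-coordinate end (peak chr6:128300242-128300650). With a fold of 2.56 and a −log10 q of 1.54, it was among the weakest of its list, in which 0.729% of peaks had a lower fold. The nearest Foxc1 summit lay 105 kb from the gene (fold 7.12), nearest to Tspan9. Tead3 (chromosome 17, 28331671 to 28350805) had no summit within 50 kb. Outside that limit, the strongest peak of the whole Foxc1 list (fold 50.5) had its summit 78.3 kb from Tead3, inside Ppard, with a Foxc2 peak of fold 4.50 at the same place, and another Foxc1 peak in Ppard lay 74.8 kb away (fold 6.17).

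The angiomotin genes encode junction proteins that bind Yap and Taz. Amotl2 (chromosome 9, 102717091 to 102733418, plus strand) held the strongest Foxc2 peak near any of the 10 genes (chr9:102717347-102717832), with a fold of 8.60 and a −log10 q of 26.9. It ranked 42 in the Foxc2 list, where 98.3% of peaks had a lower fold. Its summit lay 168 bases upstream of the annotated start in the promoter table, and inside the span, which begins further upstream. A second Foxc2 summit lay 8685 bases downstream of the start, inside the gene (fold 4.13). The Foxc1 summits of Amotl2 lay outside the gene, 35.4 kb below it (fold 4.43) and 44.4 kb above it (fold 6.17, peak chr9:102777604-102778264). Both had Amotl2 as their nearest protein-coding gene, and the nearest pair of Foxc1 and Foxc2 summits there was 36.0 kb apart. Amotl1 (chromosome 9, 14541966 to 14662974) had 1 Foxc1 summit, of fold 4.43, 34.5 kb beyond the gene and 4.25 kb from Piwil4. Its nearest Foxc2 summit lay 793 kb away.

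The promoter window of Amotl2 is shown, 5′ to 3′ on the plus strand from RefSeq (GRCm38.p6), because the strongest Foxc2 peak of the 10 genes covers most of it. Base 251 is the start, and the capitals mark the reverse complement of GGAATG at bases 186 to 191.

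Amotl2, chr9:102717554-102717853, overlapped by the Foxc2 peak: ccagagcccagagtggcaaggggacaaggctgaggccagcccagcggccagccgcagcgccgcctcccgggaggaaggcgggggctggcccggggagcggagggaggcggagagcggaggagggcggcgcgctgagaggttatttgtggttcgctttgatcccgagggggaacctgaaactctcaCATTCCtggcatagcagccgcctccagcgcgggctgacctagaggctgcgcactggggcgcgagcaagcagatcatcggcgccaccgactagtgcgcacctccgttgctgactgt

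This window held 26 CpG dinucleotides (83.1% of windows held fewer) and no TAAACA or TGTTTA. Of all Foxc2 peaks, 40.1% overlapped a promoter window of the RefSeq table, and of all Foxc1 peaks 6.13%. Near the 10 genes, 3 of 8 Foxc2 peaks did, at Lats2, Amotl2 and Hnrnpul1, the neighbour of Axl, and 1 of 15 Foxc1 peaks, at the inner start of Lats2. Tead1 and Tead4 have no window in that table, so their Foxc2 peaks at a gene end could not be counted for their own starts.

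Axl, which encodes a receptor tyrosine kinase and is a known target of Yap and TEAD, had the most peaks. It lies on chromosome 7 at 25756500 to 25788924 (minus strand), spans 32.4 kb and had 7 Foxc1 and 2 Foxc2 peaks. Only 0.151% of protein-coding genes had as many Foxc1 peaks, while 6.75% had as many Foxc2 peaks. Of the 7 Foxc1 summits, 6 lay upstream of the gene. A group of 4 lay 14.3, 15.6, 16.2 and 16.9 kb upstream of the annotated start, with folds of 5.06, 3.29, 4.90 and 16.3. The last, at chr7:25805379-25805884, was the strongest Foxc1 peak near any of the 10 genes (−log10 q of 86.6, rank 181). The other upstream summits lay at 43.1 kb (fold 3.16) and 47.0 kb (fold 11.9, peak chr7:25835443-25835963, rank 383). The summit inside Axl lay 6498 bases downstream of the start, with a fold of 3.86.

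The only place near the 10 genes where the lists overlapped lay in this group. The Foxc1 peak of fold 4.90 (chr7:25804743-25805090) and the Foxc2 peak of fold 5.50 (chr7:25804687-25805205) had summits 78 bases apart. The stronger Foxc1 peak of fold 16.3 had its summit 622 bases from that Foxc2 summit and was not overlapped. Overlap thus covered 1 of 15 Foxc1 peaks, against 8.2% of the Foxc1 list, and 1 of 8 Foxc2 peaks, against 14.8% of the Foxc2 list. At the level of genes, Axl alone of the 10 had an overlapped peak, against 3.39% of all genes for Foxc1 peaks and 3.38% for Foxc2 peaks. With a count of 1 the exact intervals ran from 0.169 to 31.9% and from 0.316 to 52.7%. These intervals treat each peak as an independent draw, but 7 of the 15 Foxc1 peaks were those of Axl. Of these, 4 had summits within 2.57 kb. Beyond the 50 kb limit and up to 100 kb, 2 more pairs overlapped, at Rassf10 and at Ppard.

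The upstream group is not nearest to Axl. Its 4 Foxc1 peaks and 1 Foxc2 peak, within 2998 bp, all lay inside Cyp2s1, a cytochrome P450 gene at 25802469 to 25816525, and Cyp2s1 was also the nearest gene to the summits at 43.1 and 47.0 kb. The remaining Foxc2 peak assigned to Axl (fold 4.13) lay inside Hnrnpul1, which encodes an RNA-binding protein, and overlapped the promoter window of that gene. Of the 9 peaks counted for Axl, the 1 of fold 3.86 had Axl as its nearest gene. Cyp2s1 was the 1 other protein-coding gene with 7 Foxc1 and 2 Foxc2 peaks, and its 7 Foxc1 peaks were the same as those of Axl, so these counts, over 2 libraries, are not separate measurements.

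No peak overlapped the promoter window of Axl itself (chr7:25788684-25788983). That window was the only 1 among the 12 windows of these genes to hold TAAACA or TGTTTA, at bases 22 to 27, which extended to GTAAACA (read on the opposite strand) at bases 22 to 28. A match to GGAATG lay at bases 18 to 23 of the same window and so shared 2 bases with it. Of all windows, 13.4% held TAAACA on either strand and 3.65% held GTAAACA. Among windows overlapped by a Foxc1 peak these shares were 31.1 and 20.7%, and among those overlapped by a Foxc2 peak 6.53 and 3.26%.

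**Figure D2:**
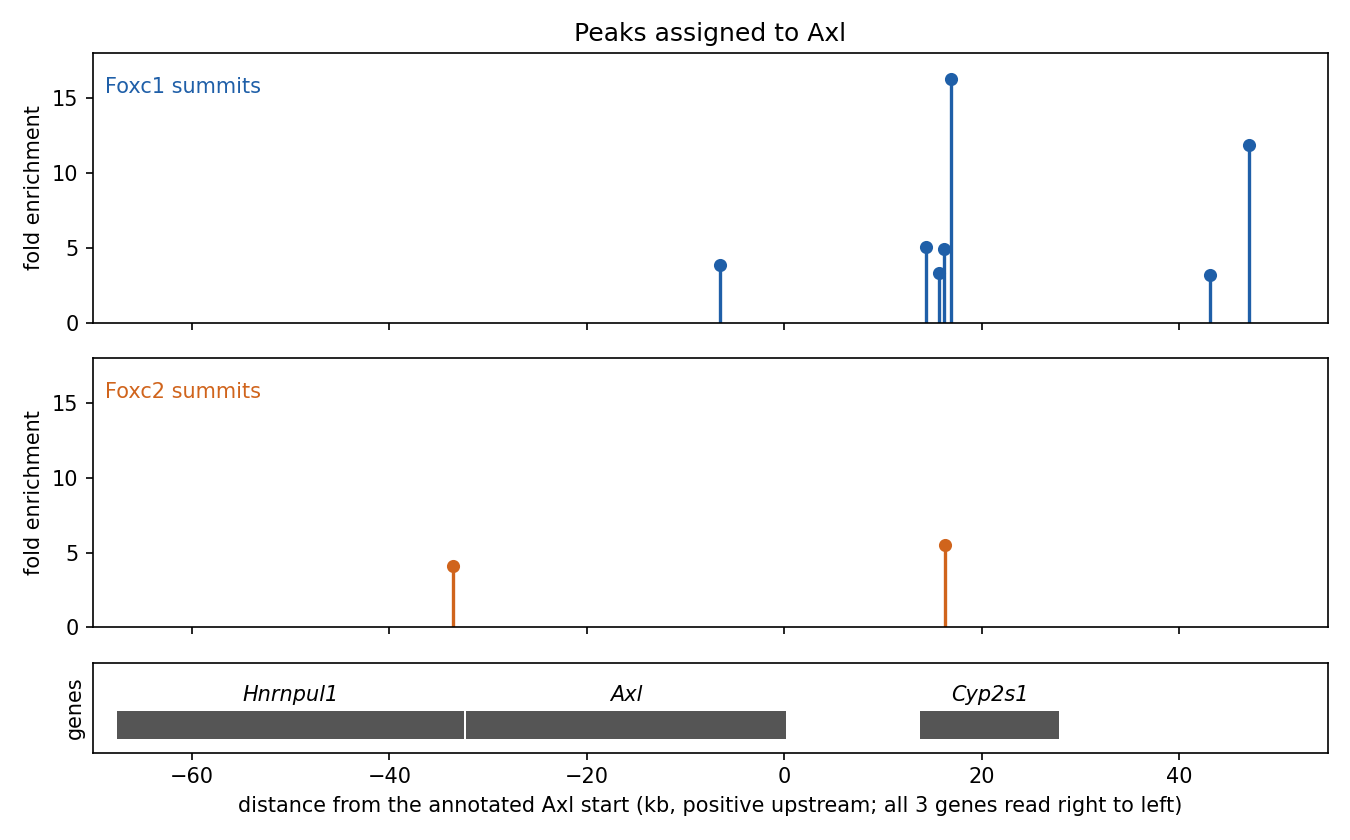
The horizontal axis is the distance from the annotated start of Axl in kb, positive upstream, and the stems give the authors' fold enrichment of each Foxc1 peak (top) and Foxc2 peak (middle), which are not to be compared in height between the lists. The bottom row shows the gene spans; 4 Foxc1 stems and 1 Foxc2 stem stand in Cyp2s1 between 14.3 and 16.9 kb upstream.

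GGAATG or its reverse complement CATTCC was found in a promoter window of 6 of the 8 genes of the 10 that the promoter table holds: Yap1, Wwtr1, Tead3, Lats2, Amotl2 and Axl. Of all 27025 genes with a window, 16.6% had such a match in any window. Lats1 and Amotl1 had no match. The 27025 genes reach beyond the 21887 protein-coding genes used above. The 8 genes had 12 windows, against 32851 windows for the 27025 genes. The shares were matched neither for kind of gene nor for windows per gene. The matches lay at different places: bases 255 to 260 of the outer window of Lats2, 110 to 115 in Yap1, 186 to 191 in Amotl2 and 18 to 23 in Axl. A window of Tead3 held 3 of them. The windows of Wwtr1 overlap each other and share 1 match. Windows overlapped by a Foxc2 peak held the motif in 10.4% of cases and those overlapped by a Foxc1 peak in 14.4%, against 14.7% of all windows. These are matches of letters in windows of 300 bases and no measure of TEAD binding.

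The heights of the peaks near the 10 genes lay around the middle of their lists. The median fold was 4.78 for the 15 Foxc1 peaks, against 4.90 in the Foxc1 list, and 4.21 for the 8 Foxc2 peaks, against 3.97 in the Foxc2 list. Of the 15 Foxc1 peaks 6 had a fold of 5 or more (47.9% of the list did), namely 3 of Axl, 2 of Lats2 and 1 of Amotl2. Of the 8 Foxc2 peaks 2 did (18.1% of the list), 1 each of Amotl2 and Axl. Folds came in steps, with 601 distinct values among 5213 Foxc1 peaks and 325 among 2881 Foxc2 peaks. The peak of Amotl1 and the weaker Foxc1 peak of Amotl2 shared their fold of 4.43 with 200 peaks of the list in all, so small differences in fold do not order these peaks.

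The rest of the pathway was read from a list of 52 further genes. Foxc1 summits were found at 23 of these and Foxc2 summits at 21 (44.2 and 40.4%, against 29.3 and 23.2% of all genes), with a median span of 47.8 kb. Summits within 1 kb of an end were found at 4 of the 52 with Foxc1 and 13 with Foxc2, against 2.93 and 7.47% of all genes. Among 8 core kinases and adaptors, Foxc1 summits were found at 3 (37.5%, against 29.3% of all genes) and Foxc2 summits at 5 (62.5%, against 23.2%), and each of these 5 had a Foxc2 summit within 1 kb of an end: Map4k4, Mob1b, Stk38, Sav1 and Mob1a. Map4k4, a kinase that can activate Lats1 and Lats2, also had 2 Foxc1 peaks, the stronger of fold 24.5. The scaffold gene Sav1 and the adaptor gene Mob1a had Foxc2 peaks of fold 4.0 and 3.57 and no Foxc1 peak, Mob1b had 1 of each (folds 7.28 for Foxc1 and 2.71 for Foxc2), Stk38, a kinase related to Lats1, had 2 Foxc2 peaks, and Stk38l had 1 Foxc1 peak. Stk3 and Stk4 had none.

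Of 17 upstream regulators, Foxc1 summits were found at 8 and Foxc2 summits at 8 (47.1% each, against 29.3 and 23.2% of all genes), with 6 genes in common (12.5% of all genes). The median span of these regulators was 91.9 kb. Nf2, which encodes the membrane-linked tumour suppressor merlin, had 1 peak of each (folds 5.38 for Foxc1 and 3.48 for Foxc2). So had Frmd6 (folds 15.98 for Foxc1 and 3.83 for Foxc2) and the atypical cadherin gene Fat1 (folds 4.75 for Foxc1 and 4.64 for Foxc2). Taok3 had 2 Foxc1 peaks and 1 Foxc2 peak, Rassf1 had 3 Foxc1 peaks and Wwc2 had 2 Foxc2 peaks. The protocadherin gene Dchs1, named after its values were seen, was the only 1 of the 17 with an overlapping pair (folds 6.39 for Foxc1 and 4.29 for Foxc2). Of all protein-coding genes, 3.39% had an overlapped Foxc1 peak and 3.38% an overlapped Foxc2 peak.

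Of 10 coactivator regulators and TEAD cofactors, Foxc1 summits were found at 3 and Foxc2 summits at 3. These shares of 30% each lay near the 29.3 and 23.2% of all genes. Summits of both antibodies were found at 2 of the 10, against 12.5% of all genes. Ptpn14, which encodes a phosphatase that binds Yap, had 1 Foxc1 peak (fold 5.22) and 2 Foxc2 peaks, the stronger of fold 7.57. Vgll4, which encodes a TEAD cofactor that competes with Yap, had 1 Foxc1 peak of fold 12.1 and 2 Foxc2 peaks. Limd1 had 2 Foxc1 peaks and Ajuba 1 Foxc2 peak. Tead2, the TEAD gene outside the 10, had none.

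Of 17 other genes of a published signature of Yap and Taz targets, Foxc1 summits were found at 9 (52.9%, against 29.3% of all genes) and Foxc2 summits at 5 (29.4%, near the 23.2% of all genes). Ccn2, a widely used target gene, had 2 Foxc1 peaks (up to fold 13.0), with a summit within 1 kb of an end, and no Foxc2 peak. F3, which encodes tissue factor, had 3 Foxc1 peaks and no Foxc2 peak. Crim1 had 5 Foxc1 peaks (up to fold 15.8) and 1 Foxc2 peak (fold 6.19). Dock5 had 2 Foxc1 and 4 Foxc2 peaks, 2 of each overlapping, with a Foxc2 fold of up to 9.63. Myof had 2 and 3, and Rbms3, with a span of 1057 kb, had 8 Foxc1 peaks and 1 Foxc2 peak. Neither shares nor peak counts were corrected for span.

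**Figure D3:**
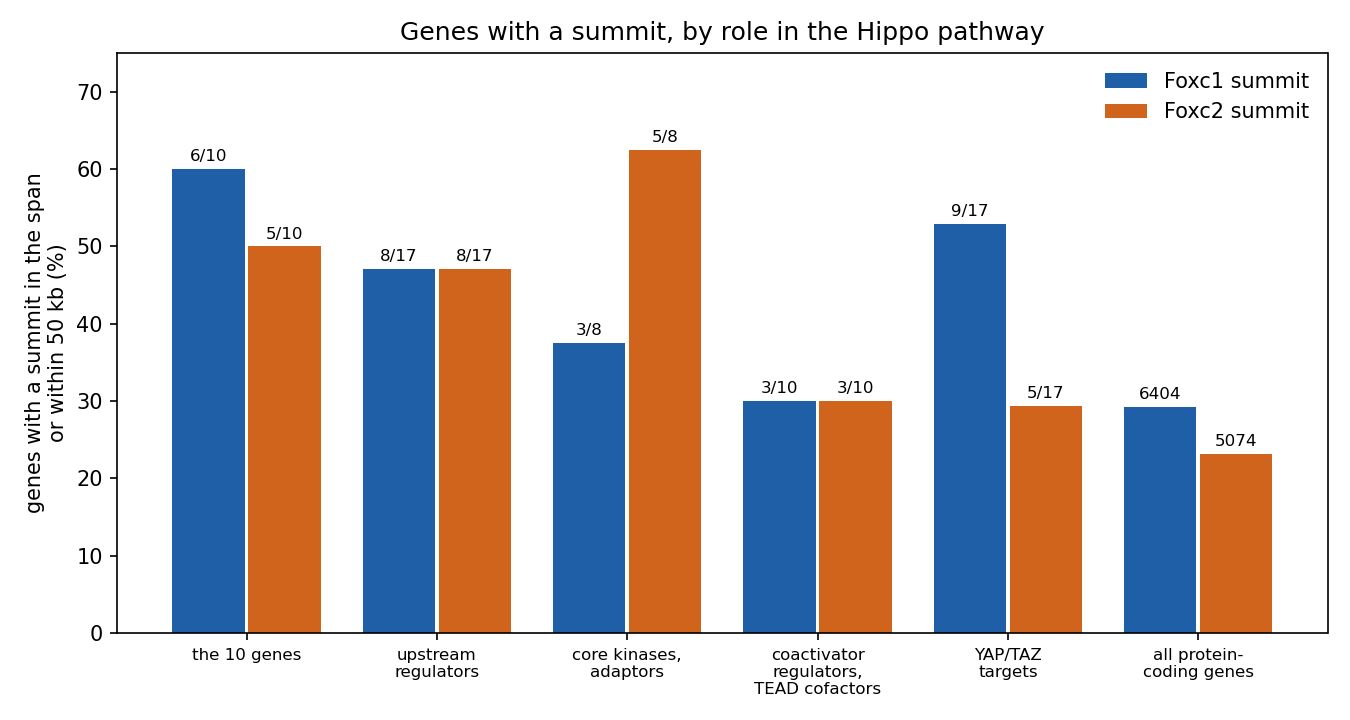
Bars give the percent of genes with a summit in the span or within 50 kb, Foxc1 in blue left of Foxc2 in orange, for the 10 genes, 4 groups of other pathway genes and all 21887 protein-coding genes, with the number of genes above each bar. The 10 genes stand at 60 and 50%, and all genes at 29.3 and 23.2%. The groups are not matched for gene span. There are no error bars because each antibody has 1 library.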

How the data were processed

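ChIP-seq was performed on mouse kidney glomeruli with a Foxc1 or a Foxc2 antibody, 1 library each. Groups were taken from the sample titles. Mapping used Bowtie2 on mm10 and peak calling MACS2, per the submitters' processing notes, without settings, control or pooling being given in the sources used here. The deposited lists give, per peak, the position, the fold enrichment over local background (a ratio, by the authors), its p-value and its q-value as −log10 (by the authors), a score column that equals 10 times the deposited −log10 q without decimals (not used), and the summit offset. All peaks had a q-value under 0.05. Depth is unknown, so weaker sites can be missing from a shallower or less enriched library.

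Summits were assigned to gene spans of the RefSeq table (GRCm38.p6) on chromosomes 1 to 19, X and Y, within 50 kb, with Python 3.11.15 and pandas 2.3.3, and a summit could belong to several genes. Overlap needed 1 shared base pair. All 10 members and all 52 further genes were found in that table, 1 by an older symbol. Promoter sequences and strand came from the RefSeq promoter table, which held 8 of the 10 members. Motif counts covered both strands. Tests were not made, because each antibody had 1 library. Exact Clopper-Pearson 95% intervals (SciPy 1.17.1) cover counting error only, and a count of 0 was taken to allow 3. Intervals over peaks treat peaks as independent, which peaks of the same gene may not be. The assignment and overlap steps were tested on simulated data. All 10 members were named, and of each further group up to 6 genes with the most peaks, ties in list order; Dchs1, Stk3, Stk4 and Tead2 were named outside this rule after their values were seen. Alternatives covered the assignment distance, the nearest gene, peak thresholds, the overlap definition and the distance to a gene end. Members and lists were chosen with earlier results of these data known.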

Additional observations from a re-analysis of the deposited data

How the results depend on the processing

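Of 42 recomputed counts, 24 stayed within 1.5 times the reported count and 18 moved. Some of the 24 could not have moved, such as counts within 1 kb of an end when only the assignment distance changed. With summits assigned up to 10 kb away, 2 members and 3 Foxc1 peaks were left for Foxc1 (5 and 7 for Foxc2), and overlapping peaks fell to 0 in both lists. Up to 100 kb, Foxc1 peaks numbered 23, and 3 peaks of each list overlapped the other. With peaks of fold 5 or more alone, 3 members with 6 Foxc1 peaks and 2 members with 2 Foxc2 peaks were left, with 0 overlapping peaks in either list and 1 Foxc2 summit within 1 kb of an end. With a q-value under 1e-05, 3 members had a Foxc2 summit and 2 Foxc2 summits lay within 1 kb of an end. Counting a summit for its nearest gene alone left 6 Foxc1 peaks. The shares of all protein-coding genes at these settings are not given here. The 29.3 and 23.2% above apply only to 50 kb and all deposited peaks, and are no background for these counts. With 2 kb in place of 1 kb, 1 Foxc1 summit (of Lats2) lay near an end, against 5 Foxc2 summits. The number of Foxc1 summits within 1 kb of an end was 0 in the 4 other settings in which it was recounted. That outcome was fixed in advance and says nothing of stability. The assignment distance cannot change this count, and stricter peak thresholds cannot raise a count of 0. No paired analysis was possible because each antibody has 1 library and the results come from no test. Depth limits all counts, since a missing peak may be an undetected one.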
